A study of Saccharomyces cerevisiae with 4 samples.

Results

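RSP5 encodes an essential ubiquitin ligase of the HECT class in budding yeast, and 9 further genes here encode proteins that bring it to its substrates. The 10 genes were RSP5, LDB19, ECM21, ALY2, ROD1, ROG3, BUL1, BUL2, EAR1 and SSH4, out of 5656 genes named on the array. They were found in the array annotation, 7 probe sets by gene name and 4 by open reading frame name, which gave 11 probe sets because SSH4 had 2. Of these, 9 probe sets were above the floor defined below on all 4 arrays, and the exceptions were those of SSH4. The RNA of Saccharomyces cerevisiae cells was measured on Affymetrix yeast genome S98 arrays after poly(A) enrichment. There were 4 groups with 1 array each, which were cells overexpressing KIN28 harvested 60 min after lithium chloride was added, cells overexpressing KIN28 at 0 min, cells overexpressing POG1 at 60 min, and cells overexpressing POG1 at 0 min. KIN28 encodes a kinase of the general transcription factor TFIIH, and POG1 a nuclear protein that promotes recovery from pheromone arrest. All cells grew at 25 °C in synthetic medium with 2% glucose, and the salt was added to 200 mM during exponential growth. The series title sets both genes beside an rsp5 mutation that causes stress sensitivity.

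The labels limit what these groups can show. They do not give the RSP5 genotype of the cells, the plasmids, or the medium of each culture, since media lacking leucine, uracil or both are named without a link to an array. No array of either culture after 60 min without salt, and none of cells without an overexpressed gene, was analysed here. Lithium and 60 min of growth therefore cannot be told apart, nor can the overexpressed gene and the plasmid or medium. "KIN28 cells" and "POG1 cells" below stand for the arrays of each overexpressed gene, called cultures where both are meant, and whether the times of a culture share a flask is not in the labels.

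Rsp5 binds short proline-rich motifs (PY motifs) through its WW domains and joins ubiquitin to membrane proteins that are then taken into the cell and sorted to the vacuole. Many of its substrates carry no such motif, and adaptors that do carry it bridge the gap. The arrestin-related adaptors are Ldb19, Ecm21, Aly2, Rod1 and Rog3, of which Ldb19, Ecm21, Rod1 and Rog3 act mainly at the plasma membrane. Bul1 and Bul2 act on permeases at the plasma membrane and the Golgi, and Ear1 and Ssh4 act on cargo at endosomes. Loss of Rsp5 function also lowers processing of the membrane-bound factors Spt23 and Mga2, which drive the fatty acid desaturase gene OLE1.

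A level below is a probe set's deposited intensity divided by the median of its array, so a level of 1 is the array's median. Values below the 20th percentile of an array were raised to it, and this floor lay at levels of 0.210 to 0.224. A difference of at least 2-fold with a value above the floor is described as higher or lower, with no test, because no group had a second array. The medians themselves ran between 41.8 and 60.6 intensity units. KIN28 had levels of 64.9 and 71.9 at 60 and 0 min in KIN28 cells, against 0.873 and 1.16 in POG1 cells. POG1 was lower in KIN28 cells, at least 335-fold at 60 min and 266-fold at 0 min, so both labels held. The spread of 1 probe set could be read from genes with 2 unsuffixed probe sets, where the SD of a log2 response was 0.61 in KIN28 cells (100 genes) and 0.64 in POG1 cells (97 genes). In 21% and 23.7% of these genes the responses of the 2 probe sets differed by at least 2-fold, a rate for pairs and not for a single member. Both probe sets were read on the same arrays, so this spread leaves out variation between arrays. All 4 alpha-cell marker genes were lower at 60 min in each culture, with median log2 differences of -2.02 and -2.72, and 2 of 4 measured a-cell probe sets were higher in KIN28 cells and 1 of 6 in POG1 cells. The summed level of the alpha-cell list was 23.0 and 10.3 on the 60 min arrays of KIN28 and POG1 cells, against 80.1 and 99.3 on the 0 min arrays, and that of the a-cell list ran between 1.43 and 2.63 with AGA2 at the floor on all 4 arrays. The 3' to 5' signal ratio of ACT1 was 1.31 and 1.92 in KIN28 cells at 60 and 0 min and 1.73 and 1.66 in POG1 cells. That of SPT15 was larger, 3.27 and 2.79 in KIN28 cells and 2.34 and 3.83 in POG1 cells. For SRB4 it was 4.32 and 7.495 in KIN28 cells and 4.65 and 3.70 in POG1 cells. The part of these ratios, and of the marker shifts, in the results below was not tested.

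RSP5 (YER125W) had levels of 5.97 at 60 min and 4.32 at 0 min in KIN28 cells. In POG1 cells its levels were 5.33 at 60 min and 3.66 at 0 min. Both 60 min arrays stood above both 0 min arrays, and how common this is over all probe sets was not counted. Within each time KIN28 cells had the higher level. The 60 min levels of the cultures, which are neighbours in this order, and their 0 min levels differed by less than the SD of 1 probe set between cultures, which was 0.50 at 60 min and 0.53 at 0 min on the log2 scale. The gene was 1.38-fold higher at 60 min in KIN28 cells and 1.46-fold higher in POG1 cells, and 29.4% and 25.8% of all probe sets measured were higher by more. A fit of both effects across all 4 arrays, with the culture-by-time interaction as its only residual degree of freedom, gave a log2 time effect of 0.51 ± 0.27 (SE) with a limma adjusted p of 0.265. The log2 difference of KIN28 over POG1 cells was 0.17 at 60 min and 0.24 at 0 min, and the fitted culture effect was 0.20 ± 0.27 (limma adjusted p = 0.787). The time differences too lay within the spread of 1 probe set. The scaling moved these values, as the log2 response of POG1 cells was 0.04 with scaling by the bacterial hybridization controls. The difference between the cultures was -0.02 at 60 min with quantile normalization and -0.29 at 0 min with no scaling.

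**Figure D1:**
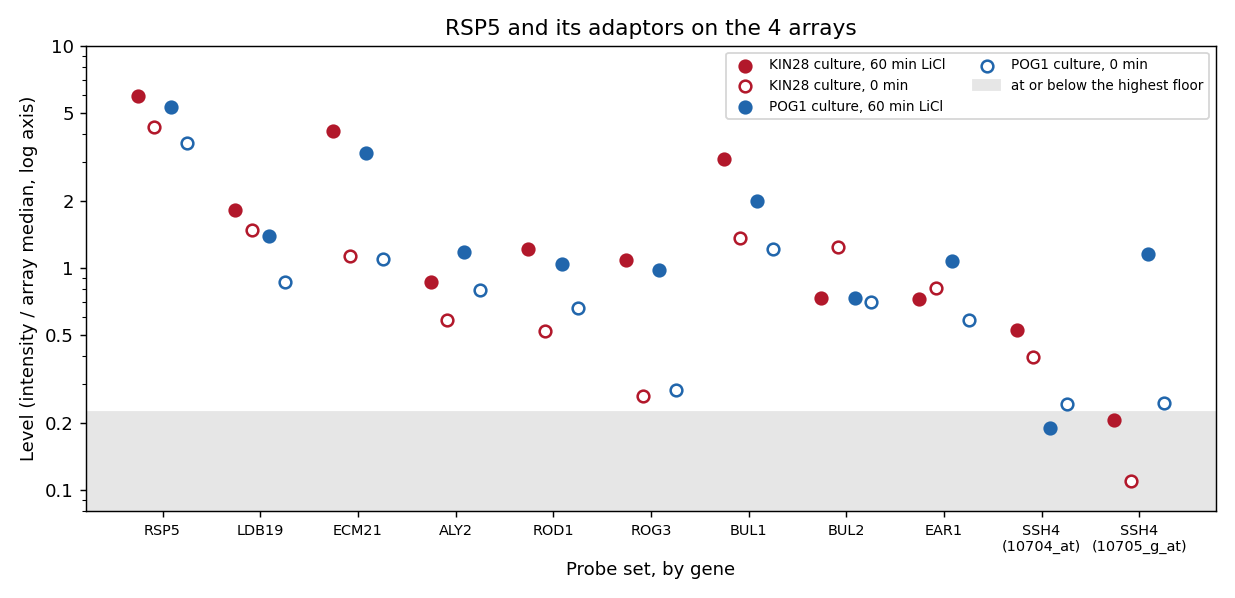
Level of each probe set of RSP5 and its adaptors (vertical log axis, intensity over array median) on the 4 arrays, with filled points for 60 min and open points for 0 min, red for KIN28 cells and blue for POG1 cells. The grey band marks levels up to the highest floor of 0.224. RSP5, ECM21, ALY2, ROD1, ROG3 and BUL1 have both filled points above both open points, and the share of all probe sets with this order was not counted.

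The arrestin-related adaptors ROG3 and ECM21 were the members that passed the test of time. ROG3 (YFR022W), which the array annotation describes by its similarity to Rod1 and whose product, like Rod1, helps to remove the pheromone receptor Ste2 from the cell surface, had levels of 1.08 and 0.263 at 60 and 0 min in KIN28 cells. In POG1 cells ROG3 stood at 0.982 at 60 min and 0.282 at 0 min. The 60 min arrays were close to the array median in both cultures and the 0 min arrays were just above the floor. ROG3 was 4.11-fold higher at 60 min in KIN28 cells and 3.49-fold higher in POG1 cells. It rose by 1.92 ± 0.27 (SE) on the log2 scale over both cultures, with a limma adjusted p of 0.0278. The 13 negative control probe sets had a 95th percentile of 0.456 at 0 min in KIN28 cells and 0.568 in POG1 cells, above the ROG3 level of each array, so its 0 min values were not above the negative controls and its folds depend on the floor. With the floor at this percentile on each array, the log2 responses of ROG3 were 1.25 in KIN28 cells and 0.79 in POG1 cells, and the time effect was 1.02 (limma adjusted p = 0.0378). With a floor at the 40th percentile the log2 responses were 0.73 and 0.59, and ROG3 was not among the probe sets tested.

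ECM21 (YBL101C), also known as ART2, encodes an adaptor for several amino acid permeases. Its levels were 4.15 at 60 min and 1.14 at 0 min in KIN28 cells. POG1 cells gave 3.30 at 60 min and 1.09 at 0 min. The 0 min arrays of both cultures were near the array median, well clear of the floor, and the 60 min arrays were far above them. ECM21 was 3.65-fold higher at 60 min in KIN28 cells and 3.02-fold higher in POG1 cells. It rose by 1.73 ± 0.27 (SE) on the log2 scale (limma adjusted p = 0.032). Both calls depend on the set tested and the floor, as the limma adjusted p was 0.0589 for ROG3 and 0.0622 for ECM21 when all non-control probe sets were tested, and 0.131 for each with no floor. Over the alternatives the adjusted p ran between 0.0108 and 0.131 for ROG3, leaving out the floor at the 40th percentile, and between 0.00222 and 0.131 for ECM21. In these fits with all non-control probe sets and with no floor, the smallest adjusted p for time of any probe set was 0.0528 and 0.131, so no call for time given below for another gene was kept in either.

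ROD1 (YOR018W), the paralog of ROG3 and an adaptor for hexose and lactate transporters, had levels of 1.22 and 0.518 at 60 and 0 min in KIN28 cells, against 1.04 and 0.657 in POG1 cells. It was 2.35-fold higher at 60 min in KIN28 cells and 1.58-fold higher in POG1 cells. The limma time effect was 0.95 ± 0.30 on the log2 scale with an adjusted p of 0.11. The log2 response of ROG3 exceeded that of ROD1 by 0.81 in KIN28 cells and by 1.14 in POG1 cells, but this order rests on the floor. The difference was 0.02 in KIN28 cells and 0.13 in POG1 cells with the floor from the negative controls, and -0.17 and -0.07 with a floor at the 40th percentile.

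ALY2 (YJL084C), also called ART3, encodes an adaptor for nutrient permeases including Gap1 and Dip5. Its levels were 0.868 at 60 min and 0.584 at 0 min in KIN28 cells. POG1 cells gave 1.18 at 60 min and 0.791 at 0 min, above KIN28 cells at each time. The log2 responses were close, 0.57 in KIN28 cells and 0.58 in POG1 cells, and the limma time effect was 0.58 ± 0.27 with an adjusted p of 0.216. LDB19 (YOR322C), also called ART1, the adaptor of the arginine permease Can1, had levels of 1.82 and 1.48 at 60 and 0 min in KIN28 cells, against 1.39 and 0.863 in POG1 cells. It was 1.23-fold higher at 60 min in KIN28 cells and 1.61-fold higher in POG1 cells (limma adjusted p = 0.294).

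The BUL1 and BUL2 paralogs, whose products act together with Rsp5 on the general amino acid permease Gap1, gave unlike values. BUL1 (YMR275C) had levels of 3.08 at 60 min and 1.36 at 0 min in KIN28 cells. In POG1 cells BUL1 had levels of 2.00 at 60 min and 1.22 at 0 min. The 60 min arrays were the higher in both cultures, 2.27-fold in KIN28 cells and 1.64-fold in POG1 cells, and the limma time effect was 0.95 ± 0.29 on the log2 scale (adjusted p = 0.103).

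BUL2 (YML111W) had levels of 0.730 and 1.24 at 60 and 0 min in KIN28 cells, against 0.734 and 0.70 in POG1 cells. A single array, that of KIN28 cells at 0 min, was high, and the other 3 lay close together. BUL2 was 1.69-fold lower at 60 min in KIN28 cells and 1.05-fold higher in POG1 cells, and the limma time effect was -0.35 ± 0.33 with an adjusted p of 0.52. The log2 response of BUL1 exceeded that of BUL2 by 1.94 in KIN28 cells and by 0.65 in POG1 cells. There is no test of either difference, and each rests on 1 pair of arrays. With no scaling the log2 response of BUL2 in POG1 cells was -0.27.

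The endosomal adaptors EAR1 and SSH4, which resemble each other in sequence according to the array annotation, gave unlike values in the cultures. EAR1 (YMR171C) had levels of 0.720 at 60 min and 0.810 at 0 min in KIN28 cells, and 1.08 at 60 min and 0.583 at 0 min in POG1 cells. Both its highest and its lowest value were from POG1 cells. EAR1 was 1.13-fold lower at 60 min in KIN28 cells and 1.85-fold higher in POG1 cells, a log2 difference of responses of -1.06. It was the member whose difference of responses passed 2-fold, where 17.5% of 6034 probe sets did so, and the limma time effect was 0.36 ± 0.36 (adjusted p = 0.548). With no scaling the log2 response of EAR1 was 0.21 in KIN28 cells and 0.55 in POG1 cells.

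SSH4 (YKL124W) was measured by 2 probe sets that went against each other. The probe set 10704_at had levels of 0.525 and 0.396 at 60 and 0 min in KIN28 cells, against 0.189 and 0.243 in POG1 cells, where the 60 min value lay below the floor. The probe set 10705_g_at had levels of 0.205 and 0.110 in KIN28 cells, both below the floor, against 1.16 and 0.245 at 60 and 0 min in POG1 cells. By 10705_g_at SSH4 was 4.71-fold higher at 60 min in POG1 cells, but its 0 min value there was below the 0.568 of the negative controls, and the fold was 2.03 with the floor at that level and 1.77 with a floor at the 40th percentile. By 10704_at SSH4 was at least 1.12-fold lower at 60 min in POG1 cells. Between the cultures at 60 min, 10704_at was at least 2.42-fold higher and 10705_g_at at least 5.15-fold lower in KIN28 cells. No direction is therefore given for SSH4, and 6 of its 8 values were under the 95th percentile that the negative controls had on the same array.

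Over the members together, 4 of 10 measured probe sets were at least 2-fold higher at 60 min in KIN28 cells and none was lower. Across the whole array 13.4% of 6178 probe sets were higher and 12.8% lower. The 4 were ROG3, ECM21, ROD1 and BUL1, of which only ECM21 and BUL1 passed with a floor at the 40th percentile. In POG1 cells 3 of 11 were higher, ROG3, ECM21 and SSH4 by 10705_g_at, and none was lower, of which only ECM21 passed with a floor at the 40th percentile, against 13.0% higher and 15.3% lower of 6183 probe sets. The median log2 response of the members was 0.52 in KIN28 cells and 0.69 in POG1 cells, and over all probe sets it was 0.02 and -0.05. In the limma fit 2 of 11 members passed for time, both of them higher, where 4.97% of 6051 probe sets passed as higher, 5.64% as lower and 10.6% in either direction. At an unadjusted p under 0.05 there were 4 members, which adds BUL1 and ROD1, against 31.4% of all probe sets.

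A response set against that of RSP5 on the same arrays does not depend on the factor by which an array is scaled, though it depends on the floor where a level is near it. The fold of ECM21 was 2.64 times that of RSP5 in KIN28 cells and 2.07 times in POG1 cells, under each floor tried. For ROG3 these ratios of folds were 2.97 in KIN28 cells and 2.39 in POG1 cells, but 1.72 and 1.19 with the floor from the negative controls and 1.20 and 1.04 with a floor at the 40th percentile. The ratios of ROD1 and BUL1 were 1.70 and 1.64 in KIN28 cells and 1.09 and 1.13 in POG1 cells. ALY2 stayed near RSP5, at 1.08 times in KIN28 cells and 1.03 times in POG1 cells, and LDB19 was 1.12-fold below it in KIN28 cells and 1.11-fold above it in POG1 cells. BUL2 lay below RSP5, 2.34-fold in KIN28 cells and 1.39-fold in POG1 cells.

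**Figure D2:**
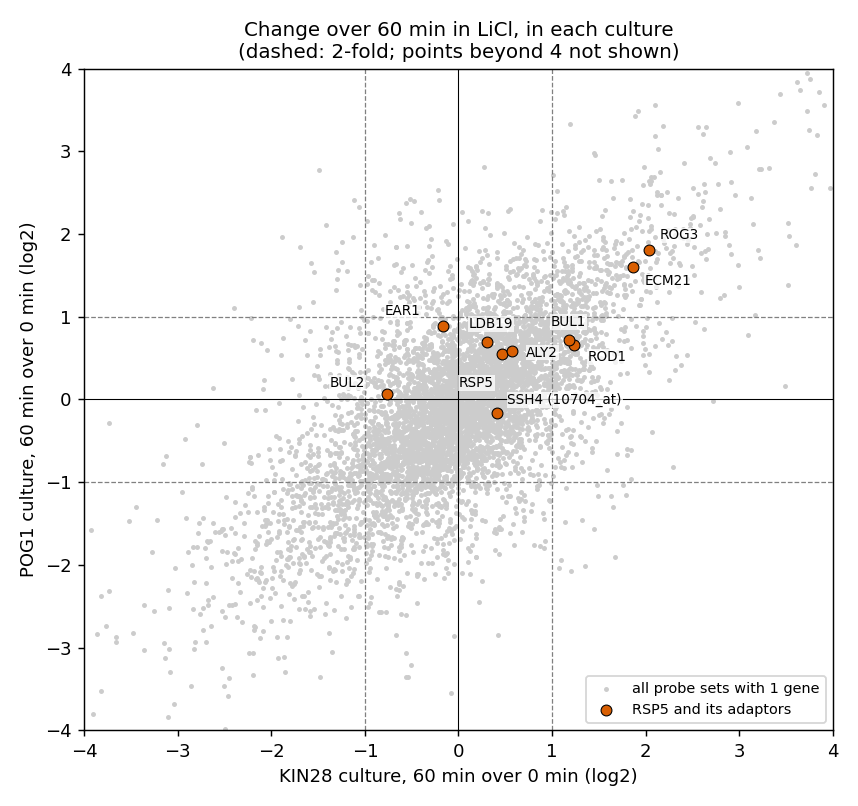
Log2 difference of 60 over 0 min in KIN28 cells (horizontal axis) and in POG1 cells (vertical axis) for each probe set with 1 gene (grey) and for RSP5 and its adaptors (orange, labelled). With the floor at the 20th percentile, only ROG3 and ECM21 among the plotted members lie beyond 2-fold in both cultures, and SSH4 by 10705_g_at is not drawn because both KIN28 arrays were at the floor.

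Counts of members that differed between the cultures are given beside the share of all probe sets. At 0 min 0 of 11 member probe sets differed at least 2-fold between KIN28 and POG1 cells, where 5.22% of 6155 probe sets were higher and 4.81% lower in KIN28 cells. The widest log2 differences at 0 min were 0.82 for BUL2, 0.78 for LDB19, 0.70 for SSH4 by 10704_at and 0.47 for EAR1, and the lowest was -0.44 for ALY2. At 60 min 1 of 11 was higher and 1 lower, the 2 probe sets of SSH4, against 7.58% and 4.85% of 6161 probe sets. BUL1 was 0.62 higher and EAR1 0.58 lower in KIN28 cells at 60 min on the log2 scale, and RSP5, ROG3, ROD1 and BUL2 lay within 0.23 of 0. In the limma fit 0 of 11 members passed for culture, where 2 of 6051 probe sets (0.0331%) did, namely those of KIN28 and POG1. At an unadjusted p under 0.05 there was 1 member, SSH4 by 10704_at, against 8.99% of all probe sets (SSH4 log2 effect 0.99, limma adjusted p = 0.553). With 1 array a group, this does not show that the cultures were alike in these genes.

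**Figure D3:**
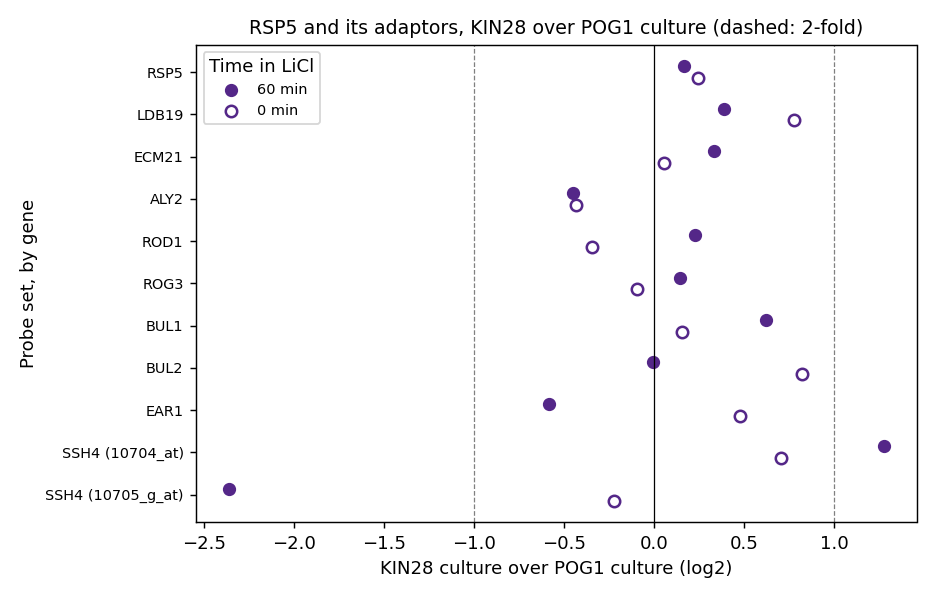
Log2 difference of KIN28 over POG1 cells (horizontal axis) for each probe set of RSP5 and its adaptors, with filled points for 60 min and open points for 0 min. Beyond the dashed 2-fold lines lie the 60 min values of the SSH4 probe sets, on opposite sides, and both are bounds because 1 array was at the floor.

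The rest of the pathway was read from lists of genes around Rsp5. Among 8 other adaptor genes (10 probe sets), CSR2 by 1 of its probe sets was 3.47-fold higher at 60 min in KIN28 cells. Its 0 min level there was 0.028, below the floor and the 0.456 of the negative controls. The other CSR2 probe set, above the floor at each time, had a log2 response of -0.21 in KIN28 cells. ART10 was 3.11-fold higher at 60 min in POG1 cells, where its 0 min level of 0.275 was below the 0.568 of the negative controls. The folds of CSR2 and ART10 therefore depend on the floor. ART10, an arrestin-related adaptor, had a log2 response of -0.67 in KIN28 cells. In the limma fit 0 of 9 probe sets of these adaptors passed for time, also at an unadjusted p under 0.05. The shares of all probe sets were 10.6% and 31.4%. The median log2 responses of these adaptors were -0.16 and -0.01 in KIN28 and POG1 cells. RIM8, which acts in pH signalling, was 2.20-fold lower in KIN28 than in POG1 cells at 0 min by each of its 2 probe sets. In addition ART5, an adaptor of the inositol transporter, was 2.14-fold lower in KIN28 cells at 60 min.

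HUL4, another HECT ligase, had levels of 3.51 and 1.05 at 60 and 0 min in KIN28 cells, against 3.18 and 0.504 in POG1 cells. Its 60 min arrays were far above its 0 min arrays, and it rose by 2.20 ± 0.34 (SE) on the log2 scale (limma adjusted p = 0.0308). HUL5, a HECT ligase that works with the proteasome, was 2.76-fold higher at 60 min in POG1 cells. The other 2 HECT ligases of the list stayed within 2-fold in both cultures. For time 1 of the 4 genes passed, where 10.6% of all probe sets did. The deubiquitinating enzyme gene UBP2, whose product opposes Rsp5, had levels of 8.61 at 60 min in KIN28 cells and 3.65 at 60 min in POG1 cells, a 2.36-fold difference. UBP7, another deubiquitinating enzyme gene, was 2.66-fold higher in KIN28 than in POG1 cells at 60 min. Its level in POG1 cells was then 0.261, below the 0.532 of the negative controls. In KIN28 cells UBP7 was at least 3.31-fold higher at 60 than at 0 min, where it lay below the floor, so both folds depend on the floor. In the limma fit 0 of the 4 genes of this list passed for time, also at an unadjusted p under 0.05. The shares of all probe sets were 10.6% and 31.4%.

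Among the kinases, phosphatases and binding proteins that regulate adaptors (13 genes, 15 probe sets), 0 probe sets passed for time in the limma fit. The share of all probe sets was 10.6%. At an unadjusted p under 0.05 there were 3, against 31.4% of all. SNF1, the kinase that phosphorylates Rod1, was 1.60-fold higher at 60 min in KIN28 cells and 2.26-fold higher in POG1 cells. NPR1, the kinase that inhibits Ldb19 and the Bul adaptors, was 1.79-fold higher in KIN28 cells and 2.24-fold higher in POG1 cells. GLC7, the catalytic subunit of the phosphatase that opposes Snf1, was 2.51-fold higher in KIN28 cells by 1 probe set and 1.45-fold by the other. The regulator gene NPR2 was 2.61-fold lower in KIN28 than in POG1 cells at 0 min. Its level in KIN28 cells was then 0.259, below the 0.456 of the negative controls, so this fold depends on the floor.

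Genes of permeases that Rsp5 sends to the vacuole gave calls in both directions. Of 19 probe sets (18 genes), 5 were higher and 3 lower at 60 min in KIN28 cells, and 4 were higher and 4 lower in POG1 cells. The shares of all probe sets were 13.4% higher and 12.8% lower in KIN28 cells and 13.0% and 15.3% in POG1 cells. The limma fit for time passed 2 higher and 2 lower of 18 probe sets, where 10.6% of all passed, and 9 had an unadjusted p under 0.05, where 31.4% of all did. DIP5, the dicarboxylic amino acid permease, rose by 1.61 on the log2 scale (limma adjusted p = 0.0373), with levels of 18.3 and 5.15 at 60 and 0 min in KIN28 cells, against 7.69 and 2.94 in POG1 cells. HXT1, a low-affinity hexose transporter, rose by 1.61 as well (limma adjusted p = 0.0373). FUI1, the uridine permease, fell by 1.91 (limma adjusted p = 0.0389). ZRT1, the high-affinity zinc transporter, fell by 1.39 by 1 of its probe sets (limma adjusted p = 0.0488), while its other probe set had an effect of 0.09. GAP1 was 2.73-fold higher in KIN28 cells and 2.01-fold higher in POG1 cells (limma adjusted p = 0.0622). The inositol transporter gene ITR1 was 2.16-fold lower in KIN28 cells and 3.04-fold lower in POG1 cells (limma adjusted p = 0.0525). DIP5 and the manganese transporter SMF1 were 2.38-fold and 2.29-fold higher in KIN28 cells at 60 min.

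In the OLE1 pathway (7 genes), NPL4, a partner of the Cdc48 segregase, had levels of 7.35 and 2.15 at 60 and 0 min in KIN28 cells, against 6.27 and 1.56 in POG1 cells. NPL4 rose by 1.89 on the log2 scale (limma adjusted p = 0.0284). It was the 1 gene of the 7 that passed, where 10.6% of all probe sets did. UFD1, the other partner, was 3.38-fold higher in KIN28 cells and 2.14-fold higher in POG1 cells, with a limma adjusted p of 0.0534. OLE1 itself was 2.47-fold higher at 60 min in KIN28 cells. Over both cultures its limma time effect was 0.52 ± 0.45 (SE) on the log2 scale, with an adjusted p of 0.481. At 0 min OLE1 had levels of 7.27 in KIN28 cells and 18.0 in POG1 cells. SPT23 and MGA2, named here after their values were seen, stayed within 2-fold in both cultures. The ESCRT machinery (15 genes here) sorts ubiquitinated cargo into vesicles of the endosome. In the limma fit 0 of its 16 probe sets passed for time, also at an unadjusted p under 0.05. The shares of all probe sets were 10.6% and 31.4%. SNF8 was 2.05-fold lower at 60 min in KIN28 cells, BRO1 was 2.04-fold higher in POG1 cells, and MVB12 was 2.18-fold lower in KIN28 than in POG1 cells at 0 min. Over the 7 lists 0 of 73 probe sets passed for culture in the limma fit, against 0.0331% of all probe sets, and 8 at an unadjusted p under 0.05, against 8.99%.

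**Figure D4:**
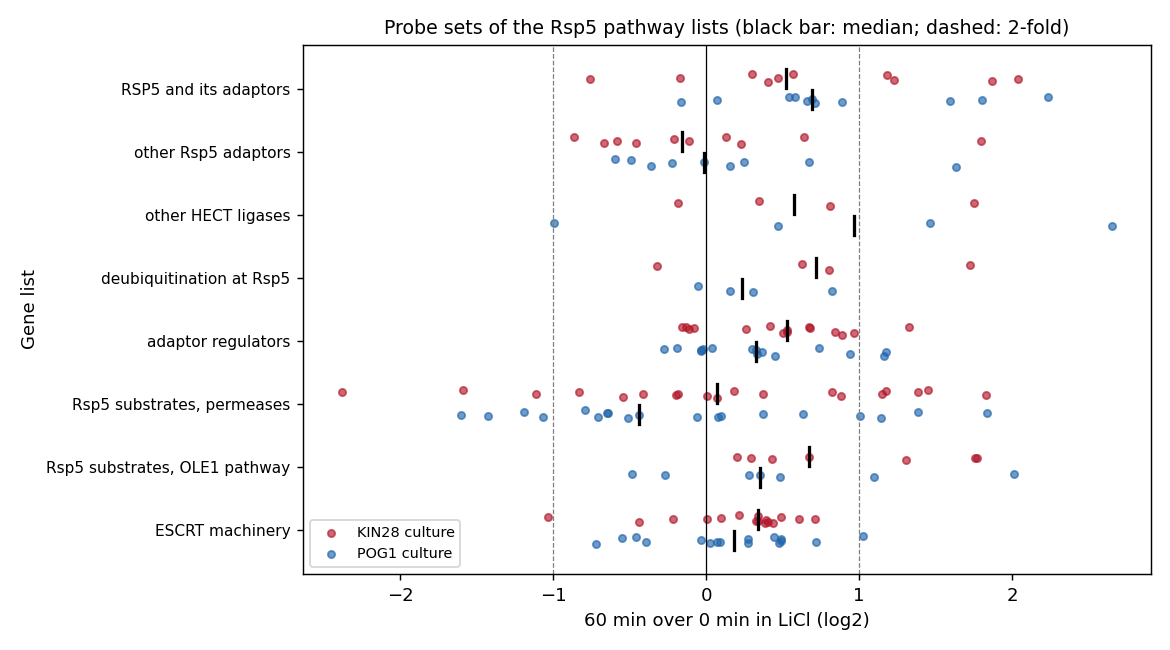
Log2 difference of 60 over 0 min (horizontal axis) for the measured probe sets of RSP5 and its adaptors and of 7 further gene lists (rows), red for KIN28 cells and blue for POG1 cells, with a black bar at each median and dashed lines at 2-fold. The members' medians are 0.52 and 0.69, and the lowest point among the permeases is FUI1 in KIN28 cells, at -2.39.

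Many genes shared the shape of RSP5 across the 4 arrays. Likeness was taken as the root mean square difference of log2 levels, each centred on its own mean over the 4 arrays, among 4839 probe sets above the floor on all of them. TAF2, a subunit of TFIID, was nearest at 0.0312, then the kinetochore gene AME1 at 0.0316, NAM8 of the U1 snRNP at 0.0328, the membrane protein gene IZH3 at 0.0361 and the spindle checkpoint gene MAD2 at 0.0366. TAF2 had levels of 1.28 and 0.978 at 60 and 0 min in KIN28 cells, against 1.17 and 0.827 in POG1 cells. With 4 arrays, 100 probe sets lay within 0.1 of RSP5 and the median distance was 0.441, so the nearest genes are a description of these arrays.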

How the data were processed

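The members and the gene lists were chosen with earlier results of these data known. The values are intensity per probe set on Affymetrix yeast genome S98 arrays, deposited by the authors as a raw column, and a ratio to the array's median that the authors deposited beside it, per the file headers; the software that summarised the probes is not given in the sources used here. The raw intensity was divided by the median of its array, raised to the 20th percentile of the array and put on the log2 scale. Of 9335 probe sets, 60 were controls, and 6504 with 1 gene in the platform annotation, whose symbols were updated through the RefSeq R64 gene table, were compared. Differences of at least 2-fold above the floor on at least 1 array compared were counted, and the background is the same count over all probe sets. The time and culture effects were fitted with limma 3.58.1 (R 4.3.3) on 6051 probe sets, with culture and time as terms, 1 residual degree of freedom and Benjamini-Hochberg adjustment at 0.05. The 2 cultures carry different overexpressed genes and are not replicates of 1 condition. Each p-value sets the mean effect against how unlike the cultures moved, with the variance moderated by that of all probe sets. It does not measure a spread between replicates. The fit was tested on simulated data with 200 changed genes, which moved alike in both cultures. The simulated noise had an SD of 0.2 on the log2 scale, below the spread of 1 probe set given above. This checks the steps and does not bear on the calls made here. Named genes were every member, the list genes that differed at least 2-fold (up to 4 per list and comparison), KIN28, POG1 and the 5 genes nearest to RSP5. Alternatives changed the scaling, floor, filter, fold, probe sets tested and variance trend. The number of arrays, 1 a group, limits the precision. Scripts used Python 3.11.15 with numpy 2.4.6, pandas 2.3.3 and matplotlib 3.10.9.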

Additional observations from a re-analysis of the deposited data

Results flagged for a closer look

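In 3 member probe sets the responses of the cultures had opposite signs as reported, and none of these differences was tested. The share of all probe sets with opposite signs was not counted. The log2 response of KIN28 cells minus that of POG1 cells was -0.83 for BUL2, -1.06 for EAR1 and 0.57 for SSH4 by 10704_at, the last with the POG1 array at 60 min at the floor. The response of BUL2 in POG1 cells was only 0.07, within the spread of 1 probe set. Also within it were EAR1 in KIN28 cells, at -0.17, and SSH4 by 10704_at in POG1 cells, at -0.17. With no scaling the signs were no longer opposite for BUL2, lower at 60 min in both cultures, or for EAR1, higher in both. The value of EAR1 was then -0.35.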

How the results depend on the processing

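No paired analysis was possible because the groups share only replicate number 1, and the limma time effect itself compares the times within each culture. Leaving out any array leaves no residual degree of freedom, so no test could be run without it, and the calls for ROG3 and ECM21 rest on all 4 arrays. The counts below are of all probe sets called in either direction and, where given, of members. As reported they were 1614 and 4 for the KIN28 response, 1752 and 3 for the POG1 response, 617 and 0 for the cultures at 0 min, 766 and 2 for the cultures at 60 min, 1055 and 1 for the difference of responses, 642 and 2 for the limma time effect and 2 and 0 for the limma culture effect. At 1.5-fold they were 2980, 3234 (7 members), 1848 (3 members), 1992 and 2382 (2 members) in the order of the first 5. At 3-fold they were 659 (2 members), 756, 135, 204 (1 member) and 365 (0 members). A floor at the 40th percentile left 2 members in the KIN28 response and 1 in the POG1 response, 240 probe sets between the cultures at 0 min, 321 (0 members) at 60 min, 478 (0 members) for the difference of responses and 1343 for time. A floor taken from the negative controls (their 95th percentile), added after the data were seen, gave 287 at 0 min, 1 member at 60 min, 677 for the difference of responses and 1259 for time. It also turned the difference between the cultures at 60 min of SSH4 by 10704_at to -0.018. With no floor the counts were 994 (1 member) at 0 min, 1180 at 60 min, 1585 (2 members) for the difference of responses, 0 for culture and 0 (0 members) for time in limma, where 389 and 1536 had an unadjusted p under 0.05. With all non-control probe sets they were 945 at 0 min, 0 for culture and 0 (0 members) for time in limma, where 675 and 2184 had an unadjusted p under 0.05. In each of these limma fits 4 members were under 0.05 for time without adjustment. With no scaling the counts were 1214 at 0 min and 2434 (3 members) for the difference of responses. With the hybridization controls they were 2751 (6 members) at 60 min, 2434 (3 members) for the difference of responses, 6 for culture and 1 member, ROG3, for time. With no filter on low values 2 members had a difference of responses past 2-fold, quantile normalization gave 1 for culture, and a trend in the prior variance gave 1304 for time. BUL1 passed for time with either higher floor, at a limma adjusted p of 0.0302 and 0.0469, in a range of 0.0302 to 0.478 over the alternatives. The hybridization controls moved the median log2 response of all probe sets to 0.229 in KIN28 cells and -0.554 in POG1 cells, and the median difference of the cultures at 60 min to 0.911. The share of calls that were higher was then 65.8%, 16.8% and 97.7%, against 51.1%, 45.9% and 61.0% as reported. With no scaling it was 76.0%, 24.6% and 77.4%, and 7.0% between the cultures at 0 min, where 52.0% was reported. Over the other values of single members, 724 kept their side of the threshold, 27 of them with the other sign, 15 passed it newly, and 14 no longer passed. The floor and 1 array a group limit what can be said of ROG3 at 0 min and of SSH4.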
